A study of Arabidopsis thaliana with 6 samples.

Results

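The *PSEUDO-RESPONSE REGULATOR* (*PRR*) family, the evening complex and *GIGANTEA* (*GI*) form the day and dusk side of the Arabidopsis circadian clock. The PRR proteins are transcriptional repressors whose transcripts peak one after another through the day, from *PRR9* in the morning over *PRR7* and *PRR5* to *PRR3* and *TIMING OF CAB EXPRESSION1* (*TOC1*) towards dusk, and they repress the morning MYB genes *CCA1* and *LHY*. *EARLY FLOWERING3* (*ELF3*), *ELF4* and the DNA-binding protein LUX ARRHYTHMO (*LUX*), or its relative BROTHER OF LUX ARRHYTHMO (*BOA*), make up the evening complex, which represses *PRR9* and genes of growth around dusk. GI stabilises the F-box protein ZEITLUPE and acts with FKF1 to relieve the block on *CONSTANS* transcription in the photoperiod pathway of flowering.

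The 10 genes were chosen by identifier, and all of them were found among the 28775 genes of the count table: *TOC1* (AT5G61380), *PRR3* (AT5G60100), *PRR5* (AT5G24470), *PRR7* (AT5G02810), *PRR9* (AT2G46790), *ELF3* (AT2G25930), *ELF4* (AT2G40080), *LUX* (AT3G46640), *BOA* (AT5G59570) and *GI* (AT1G22770). In the table of 117457 introns, 51 introns belong to 8 of them. *ELF4* and *LUX* have no annotated intron in their first isoform. For the members, intron names of chromosome 3 genes were not used, because they do not follow their genes there. In TAIR10.1 the PRR genes lie at chr5:24674963-24678550 (*TOC1*, plus strand), chr5:24197971-24201415 (*PRR3*, minus), chr5:8356204-8358546 (*PRR5*, minus), chr5:637681-642030 (*PRR7*, minus) and chr2:19232607-19235179 (*PRR9*, plus). The evening complex genes lie at chr2:11058944-11063324 (*ELF3*, plus), chr2:16734294-16734953 (*ELF4*, minus), chr3:17183042-17186959 (*LUX*, plus) and chr5:24003888-24007844 (*BOA*, plus), and *GI* lies at chr1:8061751-8067790 (plus).

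The wild type was Columbia (Col), and the mutant was *brr2a*-2, called cao in the sample labels, a recessive missense allele of *BRR2a* (AT1G20960), which encodes an RNA helicase of the U5 particle of the spliceosome, and the paper proposes a partial loss of function. The allele was induced by EMS in the *msi1-tap1* line and was studied after backcrossing to Col, so linked EMS changes and the allele cannot be told apart. Plants of both genotypes grew in short days, and 3 libraries of ribosomal RNA-depleted total RNA per genotype were made from 15-day-old material taken 1 h before dark. The labels describe rosette leaves, and the paper describes seedlings. Each genotype was sampled at 1 time of the day, so a different level and a different timing of the same rhythm cannot be told apart. Fewer cells of a type and less RNA per cell cannot be told apart either, and replicate libraries are not said to come from separate growth batches.

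The total of the gene counts ranged from 18692830 to 29830638 reads, with the highest total in Col 1. Chloroplast genes took 43.4% ± 1.43 (SD, n = 3) of the counts in Col and 43.6% ± 3.18 in *brr2a*-2. *BRR2a* itself had 139 ± 15.3 CPM (counts scaled by TMM to a common library size) in Col and 165 ± 9.84 in *brr2a*-2, which checks no label, because the allele is a missense change. All 7 leaf markers were tested, and their summed level was between 4623 and 9601 CPM in Col, lowest in Col 1, and between 8969 and 10645 CPM in *brr2a*-2. The 8 root markers summed to between 34.4 and 43.8 CPM in Col and to between 38.5 and 48.4 CPM in *brr2a*-2. Of these, 5 were tested, and the groups overlapped for all 5, with log2 fold changes between -0.97 and 0.46. The root gene *NRT2.1*, which was below the filter, had 25, 22 and 3 reads in Col and 0 in all *brr2a*-2 libraries. The 4 flower markers summed to at most 2.73 CPM, most of it *SEP3* in *brr2a*-2 3 (2.56 CPM). Among the leaf markers, *RCA* and *GLDP1* were higher in *brr2a*-2 without overlap, with log2 fold changes of 0.76 and 1.18. *RBCS1A*, *RBCS1B*, *RBCS2B*, *RBCS3B* and *CA1* lay between -0.09 and 0.18 with overlapping groups, and the median of the leaf list was 0.10. The part of these marker values in the clock results was not tested.

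The promoters of these genes are known for short motifs through which clock proteins bind, and the matches are shown as sequence context for the genes described here. Expression was not compared between carriers and other genes. In the 500 bases before the annotated start (RefSeq, TAIR10.1), searched on both strands, the evening element AAAATATCT was found in 4 of the 10 genes, against 4.44% of 27443 promoters. The matches are given on the strand of the gene, with 10 flanking bases and the match in capitals. AGATATTTT is the same element on the other strand.
TOC1, chr5:24674802-24674830 (plus strand), 151 bases before the start: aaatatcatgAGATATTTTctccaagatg
PRR5, chr5:8358820-8358848 (minus strand), 292 bases before the start: caattctactAGATATTTTttcaaatcca
PRR5, chr5:8358715-8358743 (minus strand), 187 bases before the start: gattttttctAGATATTTTcttttctcca
LUX, chr3:17182979-17183007 (plus strand), 53 bases before the start: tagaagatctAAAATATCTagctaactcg
BOA, chr5:24003835-24003863 (plus strand), 43 bases before the start: tgcgggtaaaAGATATTTTagattatcta

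*PRR9*, the member with the highest log2 fold change, has no evening element in this window and carries the other 3 motifs searched. These are the CCA1-binding site AAAAATCT (12.5% of promoters, 2 members: *PRR5* and *PRR9*), the G-box CACGTG (9.35%, 4 members: *PRR7*, *PRR9*, *LUX* and *BOA*) and the LUX-binding site GATTCG or GATACG (22.6%, 5 members: *TOC1*, *PRR9*, *ELF3*, *ELF4* and *LUX*). The evening element and the CCA1-binding site share their last letters ATCT, and neither contains the other. A match is a description of letters and no evidence of binding.
PRR9 CCA1-binding site, chr2:19232281-19232308 (plus strand): gctgaaaaaaAAAAATCTaccttttaga
PRR9 first G-box, chr2:19232353-19232378 (plus strand): aatagaaaccCACGTGtcatccacat
PRR9 second G-box, chr2:19232425-19232450 (plus strand): aggttaatgaCACGTGttaaggtgga
PRR9 LUX-binding site on the other strand, chr2:19232467-19232492 (plus strand): ccacctccacCGAATCagccgcgata

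Across the 10 genes, none passed the test of the gene fit, which used the quasi-likelihood F-test of edgeR with an adjusted p under 0.05 over all 19121 genes tested and at least a 2-fold difference. No gene of the genome passed it (0% called), and the smallest adjusted p of any gene was 0.0920. At an unadjusted p under 0.05, 5 members were lower in *brr2a*-2, against 7.47% of all genes, and 2 were higher, against 6.93%, which makes 7 of 10 against 14.4% in either direction. The members were chosen with earlier results of these data known, so their counts against all genes are a description and no test. With DESeq2, which called 419 genes or 2.19%, 3 members passed the same limits, namely *PRR9*, *PRR3* and *LUX*. The likelihood ratio test of edgeR, which called 1.97% of genes, gave the same 3 members. The 3 libraries of 1 genotype did not overlap with those of the other in CPM for 6 of the 10 members, against 21.0% of all genes. The median log2 fold change was -0.59 over the members and -0.04 over all genes. Without Col 1, 4 members stayed under an unadjusted p of 0.05, namely *PRR9*, *PRR3*, *LUX* and *TOC1*, and the same 4 were left without *brr2a*-2 1 or *brr2a*-2 2.

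**Figure D1:**
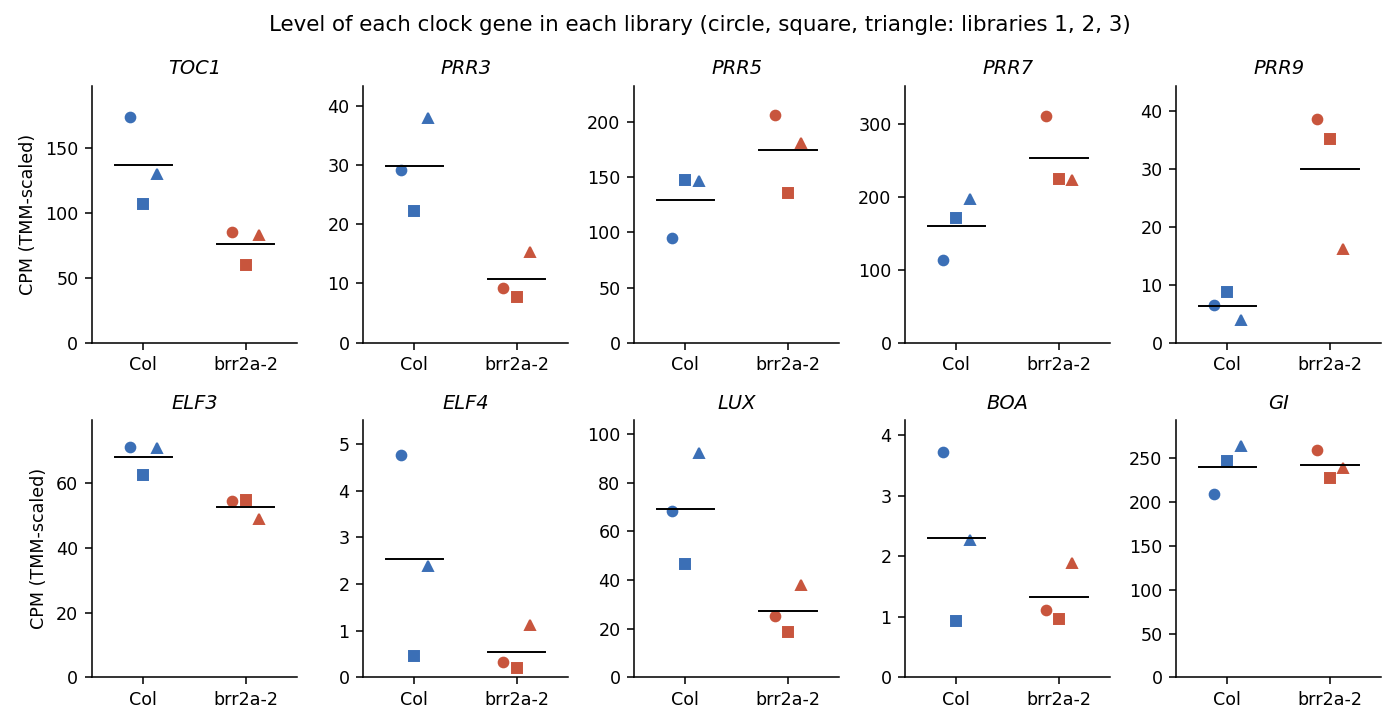
TMM-scaled CPM of each of the 10 clock genes (vertical axis, linear, from 0) in the 3 Col libraries (blue) and the 3 *brr2a*-2 libraries (red), with the mean as a line. PRR9 lies between 3.85 and 8.80 CPM in Col and between 16.2 and 38.6 CPM in *brr2a*-2, whereas LUX, PRR3 and TOC1 are lower in every *brr2a*-2 library than in any Col library.

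The PRR family was split between higher and lower levels. *PRR9*, the repressor of the early morning, had the smallest p of all members. It had 218, 189 and 73 reads in Col against 837, 731 and 291 in *brr2a*-2, and its levels were 6.58, 8.80 and 3.85 CPM against 38.6, 35.3 and 16.2 CPM. Each *brr2a*-2 library was above each Col library, and in both genotypes the third library was the lowest. The log2 fold change was 2.23 (SE 0.42), with an edgeR adjusted p of 0.170 and a DESeq2 adjusted p of 7.35e-05. Leaving out 1 library at a time moved it between 1.98 and 2.52.

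*PRR7*, which represses *CCA1* and *LHY* together with *PRR9* and *PRR5*, had 113, 170 and 198 CPM in Col and 310, 224 and 223 CPM in *brr2a*-2. The groups did not overlap, and the Col libraries spread more widely than the gap between the genotypes. Its log2 fold change was 0.65 (SE 0.26), with an edgeR adjusted p of 0.330. With 1 library left out it lay between 0.46 (without Col 1) and 0.84 (without Col 3), and among these 6 fits only that without Col 3 gave an unadjusted edgeR p under 0.05. *PRR5*, the next of the series, had 95.1, 148 and 147 CPM in Col and 206, 136 and 181 CPM in *brr2a*-2. Its groups overlapped, since *brr2a*-2 2 was below Col 2 and Col 3. A log2 fold change of 0.43 (SE 0.25, edgeR adjusted p = 0.476) was fitted, and a range of 2 SE on each side of it ran from -0.08 to 0.93. Without Col 1 it was 0.24, and the other libraries left out gave values up to 0.58.

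*PRR3* and *TOC1*, the members of the family with transcripts late in the day, were at lower levels in *brr2a*-2. PRR3, which binds TOC1 and protects it from degradation, had 29.2, 22.3 and 37.9 CPM in Col and 9.19, 7.77 and 15.3 CPM in *brr2a*-2. All 3 *brr2a*-2 libraries were below the lowest Col library, a mean ratio of 0.361. Its log2 fold change was -1.47 (SE 0.31), with an edgeR adjusted p of 0.180 and a DESeq2 adjusted p of 0.00247. *TOC1*, the founding member of the family, had 174, 107 and 130 CPM in Col and 85.1, 60.0 and 82.6 CPM in *brr2a*-2, again with no overlap. Its log2 fold change was -0.85 (SE 0.24, edgeR adjusted p = 0.232), and -0.64 without Col 1, the library with the highest *TOC1* level. Its DESeq2 adjusted p was 0.0461, but the difference stayed under 2-fold.

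An order along the day was not tested. Ratios of counts within a library do not depend on scaling between libraries, and the pairs given here were chosen after the values were seen. The count of *PRR9* divided by that of *TOC1* was 0.0378, 0.0825 and 0.0296 in Col, and 0.454, 0.589 and 0.196 in *brr2a*-2. On the log2 scale this was -4.47 ± 0.77 in Col and -1.42 ± 0.83 in *brr2a*-2 (SD, n = 3), a difference of 3.05. The count of *PRR5* divided by that of *PRR3* was 3.26, 6.62 and 3.87 in Col and 22.4, 17.4 and 11.8 in *brr2a*-2. Both ratios were higher in every *brr2a*-2 library than in any Col library.

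All 4 genes of the evening complex had lower means in *brr2a*-2. *LUX*, the GARP-type transcription factor that brings the complex to DNA, had 68.4, 46.8 and 92.4 CPM in Col and 25.2, 18.6 and 38.0 CPM in *brr2a*-2. The groups did not overlap. Its log2 fold change was -1.34 (SE 0.34), with an edgeR adjusted p of 0.210 and a DESeq2 adjusted p of 0.0129, and it stayed between -1.66 and -1.06 with 1 library left out. *ELF3*, the scaffold of the complex, had 71.1, 62.6 and 71.0 CPM in Col and 54.7, 54.9 and 48.9 CPM in *brr2a*-2. This was the smallest difference among the members whose groups did not overlap, at a log2 fold change of -0.37 (SE 0.15, edgeR adjusted p = 0.329).

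*ELF4* and *BOA* were near the lower end of detection, and their Col values depended on Col 1. *ELF4*, the small protein that joins ELF3 and LUX, had 158, 10 and 45 counts in Col and 7, 4 and 20 counts in *brr2a*-2. The groups overlapped, since *brr2a*-2 3 had more CPM than Col 2 (1.11 against 0.466). The log2 fold change was -2.25 (SE 0.92, edgeR adjusted p = 0.332), and -1.40 without Col 1, with an unadjusted edgeR p of 0.163. *BOA*, which can take the place of LUX in the complex, had 123, 20 and 43 counts in Col and 24, 20 and 34 counts in *brr2a*-2. Its log2 fold change was -0.82 (SE 0.54, edgeR adjusted p = 0.515), and -0.28 without Col 1.

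*GI* showed no difference beyond the spread of its libraries. The levels were 209, 248 and 264 CPM in Col and 260, 227 and 240 CPM in *brr2a*-2, with means of 240 ± 28.2 and 242 ± 16.2 (SD, n = 3). The log2 fold change was 0.01 (SE 0.18, edgeR adjusted p = 0.983), and 2 SE on each side of it spanned -0.35 to 0.37, a range that holds differences smaller than those of *TOC1*, *PRR3* and *LUX*. It was -0.05 without TMM scaling and -0.08 without Col 1, so its sign turned with these settings. Within a library, the count of *LUX* divided by that of *GI* was 0.327, 0.189 and 0.350 in Col and 0.0971, 0.0820 and 0.159 in *brr2a*-2, again without overlap.

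**Figure D2:**
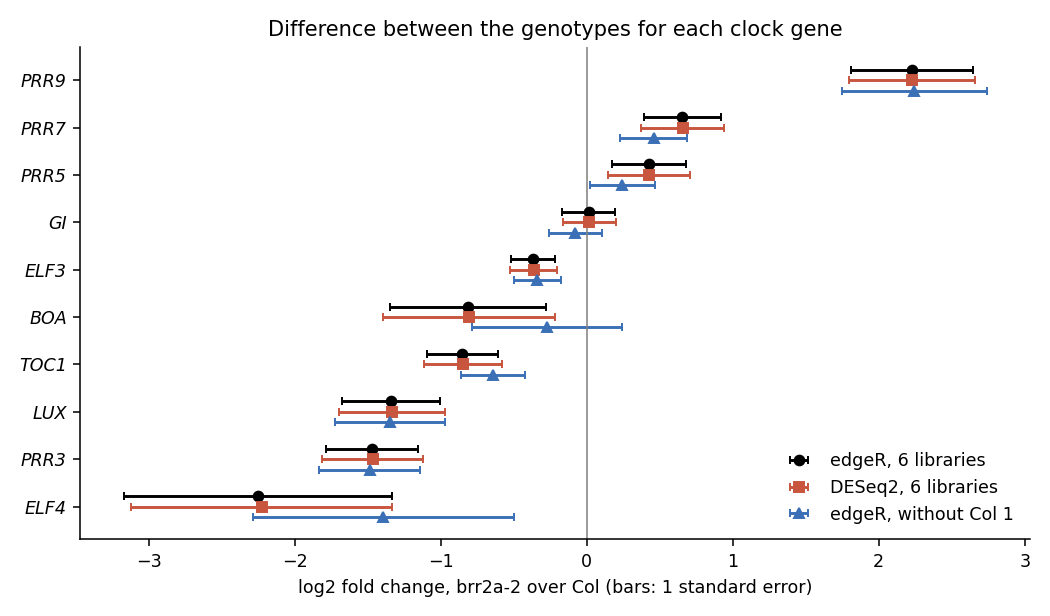
Log2 fold change of each clock gene, *brr2a*-2 over Col (horizontal axis), with 1 standard error, from edgeR with 6 libraries (black), DESeq2 with 6 libraries (red) and edgeR without Col 1 (blue). PRR9 stays near 2.2 in all 3, whereas ELF4 goes from -2.25 to -1.40 and BOA from -0.82 to -0.28 when Col 1 is left out.

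Reads that overlap another gene could not be separated by strand, because no source used here gives the strand setting of HTSeq. In TAIR10.1, *ELF3* overlaps AT2G08135 and AT2G25940, *LUX* overlaps AT3G46650 and *BOA* overlaps AT5G59580, each on the opposite strand, and no gene overlaps the other 6 members.

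Per kilobase of the exons of the first isoform, *PRR5* had the highest level in Col, with 77.4 ± 17.9 RPKM (CPM divided by exon length in kilobases; SD, n = 3). The order between genes depends on this length, which was 1677 bases for *PRR5* and 4303 for *GI*. In CPM the Col means of *GI* (240), *PRR7* (160) and *TOC1* (137) were above that of *PRR5* (130). For *LUX* and *BOA* the first isoform holds 1845 and 2046 exon bases of genes of 3918 and 3957 bases, so their RPKM are uncertain. *GI* (55.8 ± 6.56 RPKM), *PRR7* (51.8 ± 13.9 RPKM), *TOC1* (48.8 ± 12.2 RPKM), *LUX* (37.5 ± 12.4 RPKM) and *ELF3* (24.8 ± 1.78 RPKM) followed, and neighbours among these 6 genes overlapped. *PRR3* (13.7 ± 3.61 RPKM) lay apart from both of its neighbours. *ELF4* (4.10 ± 3.49 RPKM) and *PRR9* (3.28 ± 1.27 RPKM) overlapped, and *BOA* was lowest with 1.13 ± 0.681 RPKM. In *brr2a*-2 *PRR5* was again the highest, with 104 ± 21.3 RPKM, and *PRR7* (81.6 ± 16.1 RPKM) stood above *GI* (56.3 ± 3.77 RPKM) with no overlap. *PRR9* moved from rank 9 to rank 6 of the 10, with 15.4 ± 6.20 RPKM, and overlapped with *LUX* (14.8 ± 5.35 RPKM). *ELF4* (0.877 ± 0.804 RPKM) and *BOA* (0.646 ± 0.244 RPKM) were the lowest and overlapped.

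The genes whose profile over the 6 libraries was nearest to that of *PRR9*, by the root mean square difference of centred log2(CPM + 1) over 19111 other genes, were *ASG4* (0.176), AT4G15430 (0.226), AT3G24460 (0.236), *CSLB03* (0.240) and *RVE8* (0.248). *ASG4* and *RVE8* encode MYB factors of the *CCA1* family. Both were near or below 1 CPM in Col, where adding 1 to the CPM shrinks differences. Their fitted log2 fold changes were 3.66 and 3.04, against 2.23 for *PRR9*, so a near profile is not an equal change. *ASG4* had 0.393, 0.512 and 0.105 CPM in Col and 6.23, 4.92 and 2.06 CPM in *brr2a*-2. In AT3G24460 the values were 4.77, 6.89 and 4.38 CPM in Col and 43.8, 40.1 and 16.6 CPM in *brr2a*-2. As in *PRR9*, the third *brr2a*-2 library had the lowest level of the mutant libraries in both genes. These genes were selected for their likeness, so their difference between the genotypes is a description.

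Listed partners and targets of the 10 genes were counted in the same fit, in which 0 of the 45 tested passed in edgeR (0% of all genes) and 8 passed in DESeq2 (2.19% of all genes). The lists, too, were chosen with earlier results of these data known, so the counts of each list are a description. Of the 10 morning MYB factors, which PRR proteins repress, all 10 had a positive log2 fold change, 7 with an unadjusted p under 0.05, against 6.93% of all genes, and the list median was 2.05 against -0.04 over all genes. With 1 library left out the count lay between 5 and 7. *CCA1* had 4.53, 10.4 and 2.69 CPM in Col and 88.3, 73.6 and 24.3 CPM in *brr2a*-2, and its log2 fold change was 3.40 (SE 0.65, edgeR adjusted p = 0.173). *LHY*, its partner, had 1.62 ± 0.253 CPM in Col and 11.6 ± 6.30 CPM in *brr2a*-2, a log2 fold change of 2.83 (SE 0.49). *RVE8*, which activates evening genes such as *TOC1* and *PRR5*, had a log2 fold change of 3.04 (SE 0.43), while its target *TOC1* was lower and the genotypes overlapped for its target *PRR5*. *ASG4* (RVE3) had a log2 fold change of 3.66 (SE 0.61), *RVE1* of 3.47 (SE 0.68), *RVE2* of 0.89 (SE 0.37) and *LCL1* (RVE4) of 0.88 (SE 0.35). *RVE2* was at 0.41 without *brr2a*-2 1, and *LCL1* at 0.57 without Col 1.

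Among the LNK coactivators, which work with RVE8, and the cold-regulated COR27 pair, 4 of 6 genes were higher and 1 was lower at an unadjusted p under 0.05, against 6.93% and 7.47% of all genes. Without *brr2a*-2 1 or without *brr2a*-2 2, *LNK4* was no longer under that limit and 3 were. The log2 fold changes were 2.45 (SE 0.36) for *LNK3*, 2.18 (SE 0.31) for *LNK2*, 1.52 (SE 0.53) for *LNK4* and 0.81 (SE 0.18) for *LNK1*. *COR27*, a repressor of *TOC1* and *PRR5*, had 73.1, 23.6 and 51.5 CPM in Col and 16.8, 11.9 and 23.8 CPM in *brr2a*-2. Its log2 fold change was -1.50 (SE 0.43, edgeR adjusted p = 0.233), and -1.10 without Col 1. The groups overlapped, since *brr2a*-2 3 was above Col 2. The LNK genes stood on the side of *PRR9*, and *COR27* on the side of *TOC1*.

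Relatives of the evening complex genes were at low levels, with 4 of 5 tested, all 4 negative and 1 with an unadjusted p under 0.05, against 7.47% of all genes that were lower. It was lost without Col 3, *brr2a*-2 1 or *brr2a*-2 2. The gene was *ELF4-L4*, with 5.33 ± 1.23 CPM in Col and 3.02 ± 0.767 CPM in *brr2a*-2 and a log2 fold change of -0.82 (SE 0.28). *ELF4-L1* had a log2 fold change of -1.15 (SE 1.05) at under 1 CPM, and -0.55 without *brr2a*-2 2 or -1.85 without *brr2a*-2 3. Of the 7 growth genes that the evening complex represses, 6 were tested, with a list median of 0.13 and 1 higher at an unadjusted p under 0.05, against 6.93% of all genes, and between 0 and 2 with 1 library left out (0 without Col 2, *brr2a*-2 1 or *brr2a*-2 3, and 2 without Col 3). *PIF5*, a bHLH factor of hypocotyl growth, had 47.8, 30.0 and 54.1 CPM in Col and 72.9, 58.9 and 87.5 CPM in *brr2a*-2, a log2 fold change of 0.73 (SE 0.26, edgeR adjusted p = 0.287). *HFR1* had a log2 fold change of 0.90 (SE 0.54) with overlapping groups, and it moved to 0.50 without Col 1 and to 1.76 without Col 3.

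The F-box proteins that bind GI, TOC1 or PRR5 were 3 in number, and 1 of them was lower at an unadjusted p under 0.05, against 7.47% of all genes, also with any 1 library left out. *FKF1*, the blue-light receptor that works with GI, had 71.8, 69.4 and 82.8 CPM in Col and 41.0, 32.4 and 41.1 CPM in *brr2a*-2. The groups lay far apart, with a log2 fold change of -0.97 (SE 0.17, edgeR adjusted p = 0.164, DESeq2 adjusted p = 0.000249), just under the 2-fold limit. *ZTL* had a log2 fold change of 0.24 (SE 0.16), and 0.13 without Col 1, although its groups did not overlap.

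In the photoperiod output of GI and FKF1, 5 of 6 genes were tested and 4 were higher at an unadjusted p under 0.05, against 6.93% of all genes. With 1 library left out the count lay between 2 (without *brr2a*-2 1) and 4. They were the genes of the CDF repressors of *CONSTANS*, with log2 fold changes of 1.53 (SE 0.48) for AT1G69570, 1.34 (SE 0.41) for *CDF2*, 1.25 (SE 0.38) for *CDF1* and 1.11 (SE 0.43) for *CDF3*. *CDF2* was at 0.78 without *brr2a*-2 1 and *CDF3* at 0.73 without Col 1. Reads were few for AT1G69570, at 10, 7 and 15 in Col and 35, 21 and 25 in *brr2a*-2. The fifth gene tested, *CONSTANS* (*CO*), which is named after its value was seen, had 19, 21 and 11 reads in Col and 9, 7 and 6 in *brr2a*-2. Its level was 0.574, 0.978 and 0.580 CPM in Col and 0.415, 0.338 and 0.334 CPM in *brr2a*-2, near the lower end of detection. DESeq2 gave *CO* no adjusted p. Its groups did not overlap, and its log2 fold change was -0.95 (SE 0.42, edgeR adjusted p = 0.363). Other clock-associated genes, such as those for splicing and arginine methylation factors known from clock studies, gave 0 of 11 under an unadjusted p of 0.05, with log2 fold changes between -0.51 for *CHE* (-0.30 without *brr2a*-2 1, -0.91 without *brr2a*-2 3) and 0.31, and *SRR1* at -0.42 (SE 0.19). The count was 1 without Col 3 and 1 without *brr2a*-2 3.

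**Figure D3:**
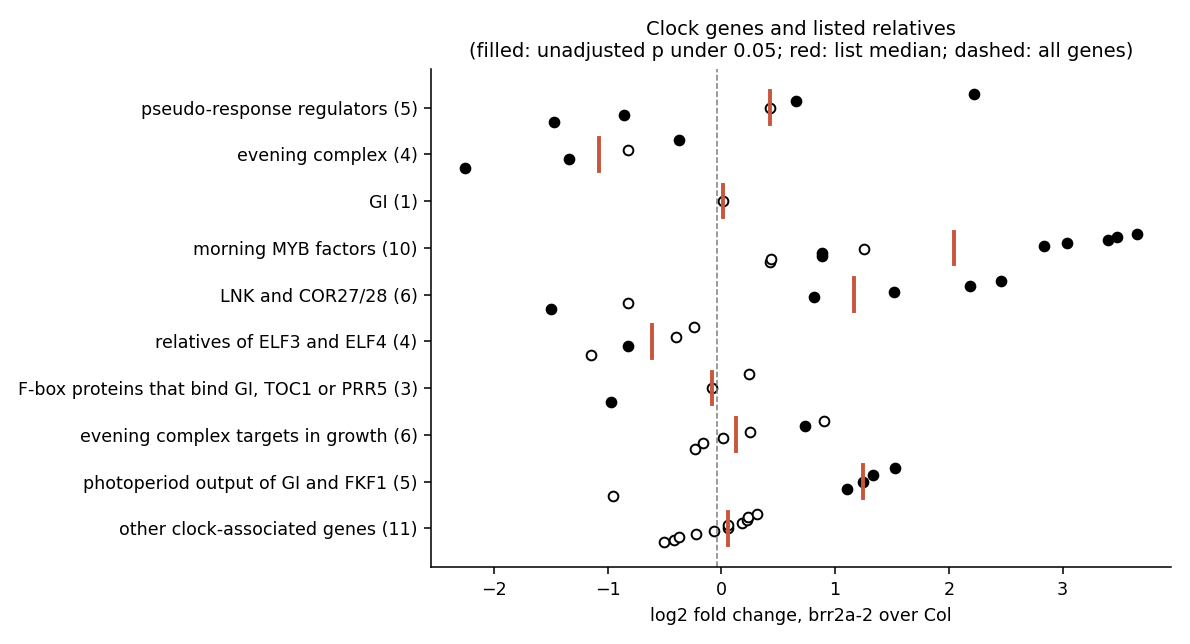
Log2 fold change, *brr2a*-2 over Col (horizontal axis), of each tested gene in the 3 groups of members and in 7 lists of partners and targets, with the number tested in brackets. Filled points have an unadjusted p under 0.05, red lines are list medians and the dashed line is the median of all genes at -0.04; the morning MYB factors lie at a median of 2.05 and the evening complex at -1.08.

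Because BRR2a is a splicing factor, reads in introns of the 10 genes were compared as well. Intron reads as a percent of gene reads were higher on average in *brr2a*-2 for all 8 members with introns, and the groups did not overlap for 6 of them (*TOC1*, *PRR3*, *PRR5*, *PRR7*, *PRR9* and *GI*), against 38.5% of 12237 genes outside chromosome 3. Over all genes, intron reads were 3.07% ± 0.436 of gene reads in Col and 4.24% ± 0.274 in *brr2a*-2 (SD, n = 3), a ratio of 1.38. The median ratio over single genes was 1.43, and the members ranged from 1.23 for *ELF3* to 1.85 for *TOC1*.

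*TOC1* intron reads were 7.03%, 5.54% and 5.31% of its gene reads in Col and 12.4%, 9.98% and 10.7% in *brr2a*-2. *PRR3* had the highest share of the members, with 15.6%, 20.3% and 15.4% in Col and 32.2%, 27.3% and 26.9% in *brr2a*-2. Most of it came from intron 1 in the 5′ UTR (466 bases), with 11.1% of the gene reads in Col and 19.7% in *brr2a*-2, libraries pooled. The shares are not scaled by intron length or number. *PRR5* had 5.75%, 5.87% and 5.61% in Col and 10.1%, 7.87% and 12.2% in *brr2a*-2. In these 3 genes the lowest *brr2a*-2 value was above the highest Col value. *PRR7* had 7.67%, 6.39% and 8.28% in Col and 11.7%, 9.12% and 11.2% in *brr2a*-2. *GI* had 4.19%, 5.19% and 3.60% in Col and 6.81%, 6.84% and 7.48% in *brr2a*-2, a gap at nearly equal gene levels. For *PRR9* the gap was narrow, since Col 3 had 13.7% and *brr2a*-2 2 had 14.1%. *ELF3* (7.76% ± 1.13 against 9.55% ± 3.06) and *BOA* (4.53% ± 4.47 against 7.79% ± 4.10, from 19 intron reads in all) overlapped. The two-sided exact permutation p was 0.10 for each of the 6 members without overlap, which is the smallest p that 3 against 3 libraries allow, 0.50 for *ELF3* and 0.40 for *BOA*.

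**Figure D4:**
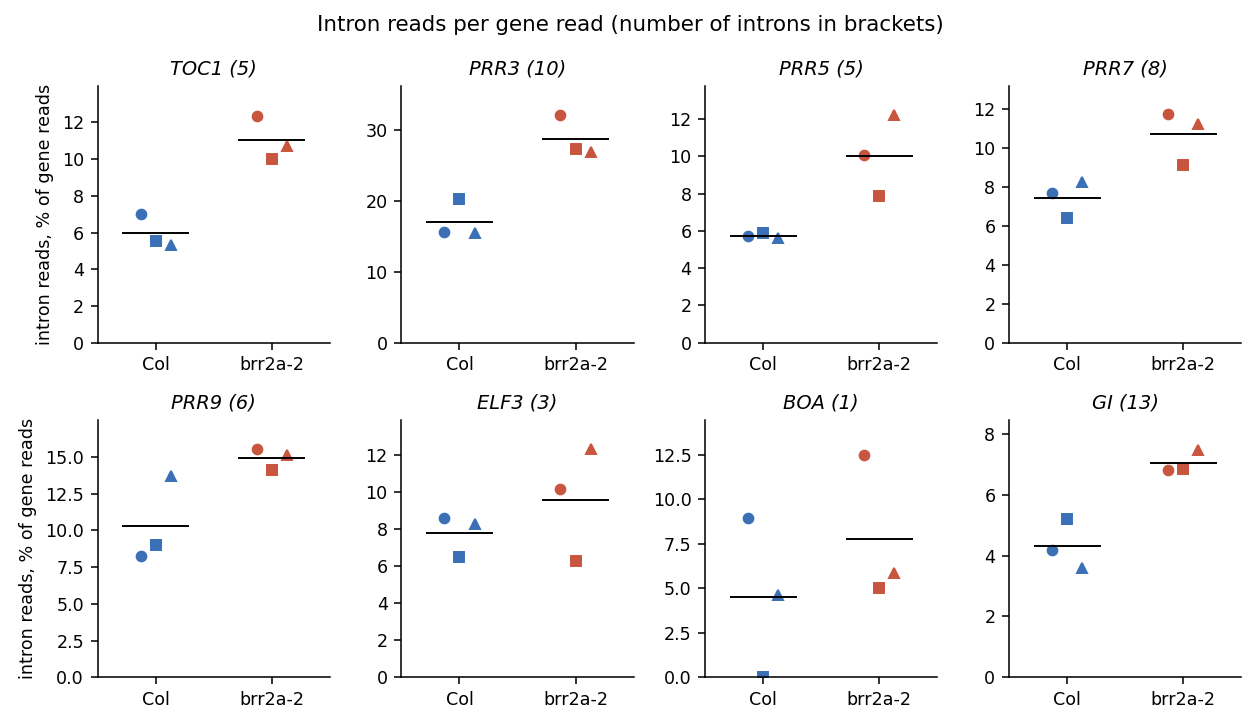
Intron reads as a percent of gene reads (vertical axis, from 0) for the 8 members with introns, in the 3 Col libraries (blue) and the 3 *brr2a*-2 libraries (red), with the mean as a line and the number of introns in brackets. The genotypes do not overlap for 6 genes, and PRR3 is the highest, with means of 17.1% in Col and 28.8% in *brr2a*-2.

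Single introns were tested relative to the change of their gene and to the shift of all introns. The intron fit of edgeR called 43 of 17214 introns (0.250%), a count that was 1 without chromosome 3, 0 without *brr2a*-2 1, 1 without *brr2a*-2 2, 11 without Col 2 and 80 without Col 1. In the full fit, 12.3% had an unadjusted p under 0.05. Shares and medians over these 17214 introns include introns named for chromosome 3 genes, each corrected by the gene in its name. Without chromosome 3, 1365 of 13811 introns had an unadjusted edgeR p under 0.05, and the median log2 fold change was -0.10. Of the 51 member introns, 33 passed the filter, and 0 were called in edgeR or in DESeq2. None had an unadjusted p under 0.05 in either, and the smallest in edgeR was 0.146. Their log2 fold changes lay between -0.51 and 0.73, with a median of 0.14 against -0.09 over all introns tested. The library sizes of the gene table were also used, so that the shift of all introns of 0.53 on the log2 scale was kept. All 33 were then positive, against 14094 of all 17214 introns tested, so the sign alone does not set the members apart. Of the 33, 8 had an unadjusted p under 0.05 in edgeR, against 23.3% of all introns that were higher at that limit. As a share of gene reads, 16 of the 33 did not overlap between the genotypes and were higher in *brr2a*-2, against 31.9% of the introns outside chromosome 3.

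The introns with the largest differences of each member, numbered along the transcript, lay within 2 SE of 0 with all 6 libraries. Intron 4 of *TOC1* had 75, 12 and 14 reads in Col and 56, 18 and 31 in *brr2a*-2, a log2 fold change of 0.73 (SE 0.51) relative to the gene. Without Col 1, which had the highest share of this intron in Col (1.30% of gene reads against 0.52% and 0.57%), it was 1.37 (SE 0.46). The unadjusted edgeR p was then 0.00849 and the adjusted p 0.236, against 0.181 and 0.606 with all 6 libraries. Leaving out the highest Col share raises the log2 fold change by construction, so this fit is a description. *TOC1* intron 5 was at 0.37 (SE 0.39). Intron 5 of *PRR5*, the last one, had 38, 46 and 32 reads in Col and 144, 68 and 110 in *brr2a*-2, a log2 fold change of 0.63 (SE 0.41), while *PRR5* intron 4 was at -0.51 (SE 0.50). In *GI*, intron 13 was at 0.60 (SE 0.44) and intron 8 at -0.41 (SE 0.42). In *PRR7*, intron 8 was at 0.41 (SE 0.69) and intron 6 at -0.38 (SE 0.55). In *ELF3*, intron 2 was at -0.38 (SE 0.36) and intron 1 at -0.11 (SE 0.45). For *PRR3* and *PRR9* only 1 intron each passed the filter, *PRR3* intron 1 in the 5′ UTR at 0.16 (SE 0.39) and *PRR9* intron 2 at -0.11 (SE 0.52).

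An intron of *PRR9* that was below the filter was singled out after its values were seen. Intron 4 (160 bases, 30.0% GC, chr2:19233758-19233917) had 0, 0 and 0 reads in Col, beside 480 reads of the gene, and 21, 12 and 7 reads in *brr2a*-2, beside 1859 reads of the gene. A count of 0 in Col allows a share of up to 0.625% of the gene reads (3 counts over the group). The observed share in *brr2a*-2 was 2.15%. The limit covers counting error in Col only. It leaves out the counting error in *brr2a*-2 and the spread between libraries. Intron 4 was chosen for its zeros in Col, and would pass a filter only through the *brr2a*-2 libraries. The limit and the share are therefore a description, and no test is given. Intron 5 (84 bases) had 1, 2 and 1 reads in Col and 16, 8 and 9 in *brr2a*-2, and per gene read its groups overlapped. Both lie between coding exons, and their sequences are given with the first and the last 2 bases in capitals.
PRR9 intron 4, chr2:19233758-19233917 (plus strand): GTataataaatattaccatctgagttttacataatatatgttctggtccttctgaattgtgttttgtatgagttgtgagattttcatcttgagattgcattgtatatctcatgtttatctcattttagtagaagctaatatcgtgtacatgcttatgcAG
PRR9 intron 5, chr2:19234190-19234273 (plus strand): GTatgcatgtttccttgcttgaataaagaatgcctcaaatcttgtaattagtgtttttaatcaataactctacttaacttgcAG

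The reads of the other *PRR9* introns, per intron base and as a percent of the reads per exon base, showed no such gap. Intron 2 was at 103% of the exon density on average in Col and 131% in *brr2a*-2. Intron 1 was at 46.1% and 44.7%, and intron 3 at 42.7% and 39.2%. Intron 5 was at 22.4% in Col and 47.2% in *brr2a*-2, with overlapping groups. Intron 6 had 0 reads in Col and 4 in *brr2a*-2.

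**Figure D5:**
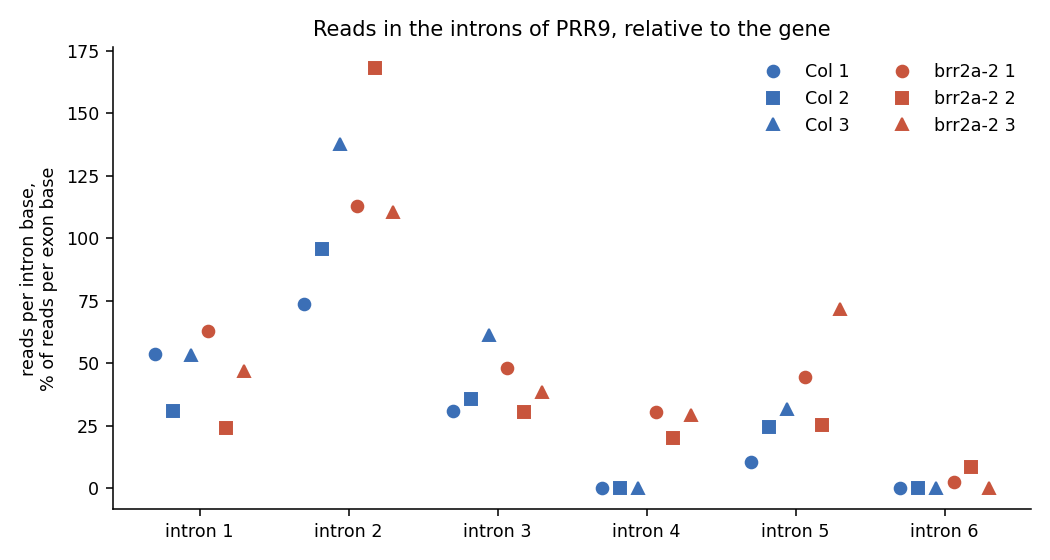
Reads per intron base as a percent of reads per exon base (vertical axis) for the 6 introns of PRR9 in the 3 Col libraries (blue) and the 3 *brr2a*-2 libraries (red). The genotypes overlap in introns 1, 2, 3, 5 and 6, and in intron 4 all Col libraries are at 0 and the *brr2a*-2 mean is 26.7%.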

How the data were processed

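Gene and intron counts of 6 libraries (3 Col, 3 *brr2a*-2) were used. The authors trimmed paired-end reads, aligned them to TAIR10 and counted them, and the submitters' processing notes name Trimmomatic 0.32, TopHat2 (version written as 2.010) and HTSeq. The deposited values are raw counts per gene and per intron of the first isoform, not normalized. The strand setting is not stated.

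Genotypes were compared with edgeR 4.0.16 under R 4.3.3 (filterByExpr, minimum count 10; TMM; quasi-likelihood F-test; Benjamini-Hochberg adjustment over all features; adjusted p under 0.05 and 2-fold). Log2 fold changes are *brr2a*-2 over Col, and standard errors come from the F statistic. Intron counts were scaled on their own totals, and the gene log2 fold change, with a prior count of 2, was added as an offset without its own error. Intron numbers run along the chromosome in the table and were turned to transcript order. Alternatives used DESeq2 1.42.0, the likelihood ratio test, 1 RUVg factor with 5000 control genes, other scalings and filters, the replicate number as a block, and each library left out. The intron fit without chromosome 3 was chosen after seeing the data. Steps were tested on simulated data. Exact permutation tests used scipy 1.17.1.

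The members and lists (morning MYB factors, LNK and COR27/28, relatives of ELF3 and ELF4, F-box proteins, evening complex targets, photoperiod output, other clock genes, and leaf, root and flower markers) were chosen with earlier results of these data known. All members are named; listed genes are named where the unadjusted p was under 0.05 or the difference was among the 2 largest of the list, and introns of members likewise. Positions and sequences come from RefSeq TAIR10.1. Names are its symbols or common names. RefSeq has PCL1 for *LUX*, PIL6 for *PIF5*, TCP11 for *CHE* and no symbol for *LNK1*, *LNK2*, *LNK3* and *LNK4*. *ASG4* is also called RVE3, *LCL1* is also called RVE4, and AT1G69570 is also called CDF5.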

Additional observations from a re-analysis of the deposited data

How the results depend on the processing

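The gene fit called 0 genes, and 0 with the other scalings, on nuclear genes only and with the replicate number as a block. It called 3 genes with no filter on low counts, 9 with 1 RUVg factor, 377 with the likelihood ratio test and 419 with DESeq2, and between 0 and 2 with 1 library left out (2 without Col 1). Of 140 alternative fits of the 10 members, 131 kept the direction and the call, 6 added a call (*PRR9*, *PRR3* and *LUX* in DESeq2 and in the likelihood ratio test) and 3 turned the sign, all of *GI*, at -0.050 without TMM, -0.079 without Col 1 and -0.039 without *brr2a*-2 1 (range with 1 library left out, -0.079 to 0.098). Same-numbered libraries deviated together with correlations of 0.039, 0.228 and 0.422, and differently numbered ones with values between -0.493 and 0.228. The number was not taken as a pairing. With the replicate block the SE fell from 0.42 to 0.19 for *PRR9*, from 0.31 to 0.16 for *PRR3* and from 0.34 to 0.15 for *LUX*. It also fell for *TOC1*, *ELF4* and *BOA*, and rose for *PRR5*, *PRR7*, *ELF3* and *GI*. In that fit the edgeR adjusted p of *PRR9*, *PRR3* and *LUX* was 0.129, and 0 genes and 64 introns were called.

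The intron fit called 43 introns. It called 99 with no correction for the gene, 699 with the library sizes of the gene table, 129 with DESeq2, 1 without chromosome 3 and between 0 and 80 with 1 library left out (0 without *brr2a*-2 1, 1 without *brr2a*-2 2, 11 without Col 2, 80 without Col 1). The cause of these differences was not tested. Introns named for chromosome 3 genes were corrected by the gene in their name, although these names do not follow their genes. The fit without chromosome 3 leaves them out and holds fewer introns (13811). Of the 12 tested member introns named by the rule, none was called in 156 alternative fits, and the sign turned in 16. With no correction for the gene these were *TOC1* intron 4 (-0.12), *TOC1* intron 5 (-0.48), *PRR3* intron 1 (-1.30), *PRR7* intron 6 (0.27) and *PRR9* intron 2 (2.09). With the library sizes of the gene table they were *PRR5* intron 4 (0.13), *PRR7* intron 6 (0.25), *PRR9* intron 2 (0.51), *ELF3* intron 1 (0.52), *ELF3* intron 2 (0.22) and *GI* intron 8 (0.19). With 1 library left out they were *PRR7* intron 8 (range -0.28 to 0.79), *PRR9* intron 2 (range -0.41 to 0.14) and *ELF3* intron 1 (range -0.40 to 0.25). Intron reads per gene read kept their direction for all 8 members under both denominators and with each library left out. With 1 library left out, the log2 fold change lay between -3.28 and -1.40 for *ELF4* and between -1.19 and -0.28 for *BOA*.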
